A study of Mus musculus with 20 samples.

Results

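Macrophages take up dying cells and debris and break them down in lysosomes, and macrophages that cannot clear a load can fuse into multinucleated giant cells, which have been described in the ovaries of ageing mice. The genes of this programme followed here number 9: Ctss, Lyz1, Lyz2 and Mmp12 encode secreted or lysosomal enzymes, Cd68 and Gpnmb encode lysosomal membrane glycoproteins, Itgax and Trem2 encode surface receptors, and Spp1 encodes the secreted ligand osteopontin. None of them is restricted to giant cells, and Spp1 in particular is also made by epithelial and stromal cells. The 9 genes were taken by name from the 23457 genes of the count files and were chosen with earlier results of these data known. Their shares are therefore set beside those of all genes as descriptions. All 9 passed the filter on low counts, which left 16099 genes to be tested.

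Ovarian messenger RNA was sequenced from 20 females of an Ames dwarf stock, 5 in each of 4 groups. Normal mice carried 1 copy of the dwarf allele (N/df) and dwarf mice carried a pair (df/df), and both were taken at 6 and at 22 months of age. Dwarf mice lack growth hormone, prolactin and thyrotropin, so a difference between the genotypes cannot be placed in the ovary or assigned to 1 hormone. Levels below are CPM, counts per 1000000 of the library's gene total, given for replicates 1 to 5 in that order. Fold changes are log2 values from edgeR's quasi-likelihood test ± SE, with p-values adjusted over the 16099 genes by Benjamini-Hochberg, and a gene was called at an adjusted p under 0.05. In whole ovaries, fewer cells of a type and less RNA per cell cannot be told apart.

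Library totals ran from 1365640 to 36068284 counts, and the smallest, normal 6-month replicate 3, is the least precise. Normal 6-month replicate 2 held a summed 6173 CPM of 6 oviduct markers, against 22.4 to 118 CPM in the other 4 libraries of its group, and only 190 CPM of 9 ovary markers, where the group median was 12190. Normal 22-month replicate 3 held the most RNA of immune cells, with 1264 CPM of 11 B cell markers where the other 4 libraries of its group had 57.5 to 184 CPM, and 3033 CPM of 17 general macrophage markers where they had 694 to 1269. These 3 libraries were left out together as an alternative, and normal 22-month replicate 3 was also left out by itself. The 6 oviduct markers also summed to 1895 to 3808 CPM in normal and 2004 to 3533 CPM in dwarf ovaries at 22 months. In dwarf ovaries at 6 months they ran from 26.5 to 1532 CPM. Apart from normal 6-month replicate 2, oviduct markers were thus higher at 22 months in both genotypes. Their part in the age comparisons was not tested. Ovary markers were found in each group, and Cyp11a1, which encodes the first enzyme of steroid synthesis, averaged 2501, 1989, 165 and 190 CPM in normal ovaries at 6 and 22 months and dwarf ovaries at 6 and 22 months. Its fitted difference between dwarf and normal ovaries was log2 -3.95 ± 0.833 at 6 months (edgeR adjusted p = 0.00970) and -3.46 ± 0.815 at 22 months (adjusted p = 0.0225). Of the 9 ovary markers it was the only one called at 6 months, and at 22 months Amh was also called, higher in dwarf ovaries (2.78, edgeR adjusted p = 0.0239).

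Lyz1 and Lyz2 lie next to each other on the minus strand of chromosome 10 and encode almost the same lysozyme, so their starts are shown first, with the letters that differ in the alignment in capitals. The windows are RefSeq's 300 bases around each start in GRCm38.p6, chr10:117292819-117293118 for Lyz1 and chr10:117282223-117282522 for Lyz2, both read 5′ to 3′ on the minus strand.
Lyz1: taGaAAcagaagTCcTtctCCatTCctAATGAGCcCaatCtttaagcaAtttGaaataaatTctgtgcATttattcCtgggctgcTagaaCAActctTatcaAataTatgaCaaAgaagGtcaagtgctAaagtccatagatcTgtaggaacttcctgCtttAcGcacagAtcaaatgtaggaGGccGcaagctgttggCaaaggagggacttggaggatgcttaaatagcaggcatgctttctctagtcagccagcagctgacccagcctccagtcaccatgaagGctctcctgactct
Lyz2: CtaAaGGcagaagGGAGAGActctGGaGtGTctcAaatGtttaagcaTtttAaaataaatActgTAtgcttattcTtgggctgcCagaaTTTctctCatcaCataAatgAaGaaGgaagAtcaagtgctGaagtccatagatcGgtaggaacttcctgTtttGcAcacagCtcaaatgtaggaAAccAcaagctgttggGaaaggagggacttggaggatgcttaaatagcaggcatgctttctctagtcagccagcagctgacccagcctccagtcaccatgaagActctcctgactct
Of 310 aligned columns, 254 were identical, 36 held a mismatch and 20 held a gap. The differences lie mainly in the upstream part, and the stretch around the start is nearly shared. The transcripts matched at 95.96% of the columns without a gap, and 16.1% of the 50-base windows of Lyz1 and 15.4% of those of Lyz2 occurred unchanged in the other gene. Reads from such windows cannot be assigned to 1 of the 2 genes, so single values of Lyz1 and Lyz2 are uncertain. Itgax shared 9.61% of its windows with the neighbouring integrin gene Itgad, and Spp1 shared 9.05% with the predicted gene Gm42793. The remaining 5 genes shared none.

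The starts of Ctss, Gpnmb and Spp1 are shown next because these genes stand for different patterns in the counts: Ctss rose with the general macrophage markers, Gpnmb was highest in other libraries than Ctss, and Spp1 was called between the genotypes and not with age. Capitals mark motif matches on either strand. The windows lie at chr3:95526536-95526835 for Ctss, chr6:49036268-49036567 for Gpnmb and chr5:104434861-104435160 for Spp1, all on the plus strand of GRCm38.p6.
Ctss: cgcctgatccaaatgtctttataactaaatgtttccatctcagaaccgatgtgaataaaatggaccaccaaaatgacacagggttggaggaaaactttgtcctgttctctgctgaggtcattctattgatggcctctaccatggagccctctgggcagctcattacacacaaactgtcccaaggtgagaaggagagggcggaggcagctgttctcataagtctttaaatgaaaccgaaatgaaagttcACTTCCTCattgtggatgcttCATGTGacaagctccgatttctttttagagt
Gpnmb: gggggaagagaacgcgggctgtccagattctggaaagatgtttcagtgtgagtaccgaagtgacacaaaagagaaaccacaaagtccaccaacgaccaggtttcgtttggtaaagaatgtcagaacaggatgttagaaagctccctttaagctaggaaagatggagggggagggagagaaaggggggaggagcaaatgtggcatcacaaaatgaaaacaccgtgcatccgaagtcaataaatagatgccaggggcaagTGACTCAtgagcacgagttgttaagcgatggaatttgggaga
Spp1: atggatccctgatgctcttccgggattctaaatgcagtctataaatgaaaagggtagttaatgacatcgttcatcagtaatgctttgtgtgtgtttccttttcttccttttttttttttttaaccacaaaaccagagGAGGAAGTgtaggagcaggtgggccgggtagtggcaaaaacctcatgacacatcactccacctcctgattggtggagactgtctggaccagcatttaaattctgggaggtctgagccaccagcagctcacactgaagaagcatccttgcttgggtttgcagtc
The PU.1 core GAGGAAGT, a site of the myeloid factor PU.1, stood before the start of Spp1. For Ctss its reverse complement ACTTCCTC lay across the start, beginning 2 bases before it. The PU.1 core was found for 3 of the 9 genes (Ctss, Mmp12 and Spp1) and in 3.20% of 32851 promoter windows. For Mmp12 it lay only in a window around another start than that of the deposited annotation. The AP-1 site TGANTCA was found for 5 of the 9 genes (Cd68, Gpnmb, Itgax, Mmp12 and Trem2) and in 7.81% of all windows. The windows of Cd68 and Itgax also lie around another start than the annotated one. CATGTG, the core of the M-box bound by MITF and its relatives, was found for Ctss and Mmp12 and in 14.2% of all windows, and the E-box CACGTG for none of the 9 and in 7.15%. These shares are per window, while Spp1 and Mmp12 have more than 1 window each (11 windows for the 9 genes), so the counts are not on the same basis. A match is a description of letters, not of a bound site.

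With age in normal ovaries, most of these genes were more abundant. Of the 9 genes, 6 rose from 6 to 22 months (Ctss, Lyz1, Lyz2, Gpnmb, Itgax and Cd68), none fell, and 3 did not pass the test (Mmp12, Trem2 and Spp1). Over all 16099 genes 2.6% rose and 4.14% fell in the same comparison. The median log2 change of the 9 genes was 2.51, beside -0.017 over all genes. For Ctss, Lyz1, Lyz2, Mmp12 and Itgax, 5 of the 9, the lowest library at 22 months lay above the highest at 6 months, which held for 1.39% of all genes. A fit of the 10 normal libraries alone gave the 6 genes like fold changes but called none of them (edgeR adjusted p from 0.214 to 0.259), nor any of its 15304 genes, with 8 of the 9 and 1903 of all at an unadjusted p under 0.05. In dwarf ovaries Lyz1 alone of the 9 rose with age, 1 of 9 beside 2.92% of all genes, and none fell, beside 8.27%. The median change was 0.30 beside 0.002 over all genes.

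**Figure D1:**
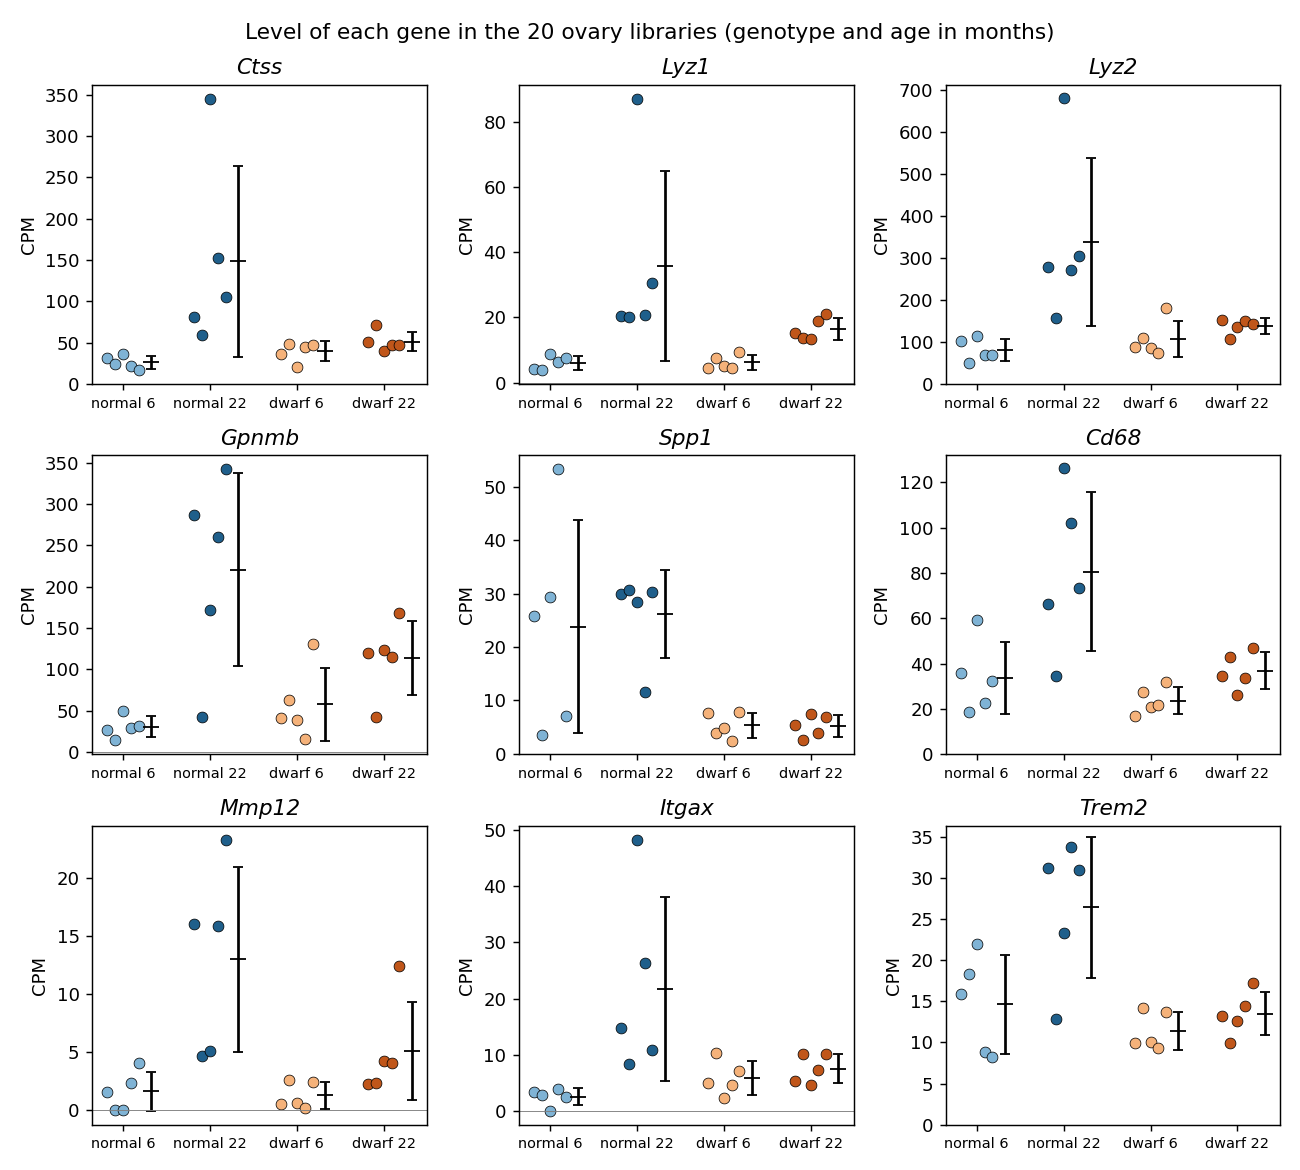
Level of each of the 9 genes in CPM (vertical axes, linear, 1 scale per gene) in the 20 libraries, grouped by genotype and age in months (horizontal axes). Each point is 1 library, in replicate order within its group, and the bar beside it is the mean with the SD over 5 libraries. Normal ovaries at 22 months hold the highest point for 8 of the 9 genes, and Spp1 is lower in dwarf than in most normal libraries.

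Ctss encodes cathepsin S, a lysosomal cysteine protease with which antigen-presenting cells process the class II invariant chain. It stood at 31.6, 23.7, 36.6, 22.2 and 16.6 CPM in normal ovaries at 6 months and at 80.6, 58.8, 345.5, 153 and 105 CPM at 22 months. The 2 ages did not overlap, and replicate 3 was far above every other library. The rise was log2 2.51 ± 0.418 (edgeR adjusted p = 0.00745) and remained called without that library, at 1.92 (adjusted p = 0.0124). Dwarf ovaries held 35.7, 48.9, 19.9, 44.9 and 47.5 CPM at 6 months and 50.6, 71.0, 40.0, 47.3 and 47.4 CPM at 22 months, ranges that overlapped (0.30 ± 0.391, edgeR adjusted p = 0.630). At 22 months dwarf ovaries were lower than normal ones by log2 -1.64 ± 0.400 (edgeR adjusted p = 0.0267), with the highest dwarf library above the lowest normal one. Without normal replicate 3 this difference was -0.99 and was no longer called (adjusted p = 0.0822), and leaving out any single dwarf 22-month library except replicate 2, or normal replicate 4, also ended the call (edgeR adjusted p from 0.0505 to 0.0803).

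Mmp12 encodes macrophage elastase, a secreted metalloproteinase that digests elastin. Normal ovaries at 6 months gave 1.54, 0, 0, 2.32 and 4.06 CPM. The 2 libraries at 0 allow up to 0.218 CPM in replicate 2 and, for its small total, 2.20 CPM in replicate 3. At 22 months the values were 16.0, 4.64, 5.07, 15.8 and 23.3 CPM, all above the younger libraries, yet the change of log2 2.83 ± 0.864 missed the threshold (edgeR adjusted p = 0.0549, with a 95% interval from 1.02 to 4.64). The highest library was replicate 5 and not replicate 3. Dwarf ovaries held 0.530, 2.55, 0.606, 0.141 and 2.36 CPM at 6 months and 2.26, 2.27, 4.16, 4.03 and 12.4 CPM at 22 months, and the ages overlapped (1.90 ± 0.832, edgeR adjusted p = 0.143). Without the 3 libraries named above, the change in normal ovaries was 2.52 and called (edgeR adjusted p = 0.0258).

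Lysozymes cleave the walls of bacteria. Lyz2 is the lysozyme of macrophages and neutrophils, and Lyz1 is best known from Paneth cells of the gut. Lyz2 stood at 102, 50.7, 113.5, 69.7 and 68.8 CPM in normal ovaries at 6 months and at 278, 157, 680, 270 and 305 CPM at 22 months. The ages did not overlap, replicate 3 was again the highest, and the rise was log2 2.04 ± 0.356 (edgeR adjusted p = 0.00787). In dwarf ovaries the values were 88.9, 110, 84.4, 74.7 and 180 CPM at 6 months and 153, 107, 135, 149 and 143 CPM at 22 months. The highest of these 10 libraries was a young one, and the change with age was 0.26 ± 0.341 (edgeR adjusted p = 0.638). At 22 months all 5 dwarf libraries lay below all 5 normal ones, a difference of -1.40 ± 0.348 (edgeR adjusted p = 0.0292). Without normal replicate 3 it was -0.93 and not called (adjusted p = 0.0843), and without any 1 dwarf 22-month library it was not called either (adjusted p from 0.0643 to 0.0725).

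Lyz1 was scarcer, at 4.24, 3.79, 8.79, 6.29 and 7.57 CPM in normal ovaries at 6 months and 20.4, 20.2, 87.25, 20.8 and 30.5 CPM at 22 months. The rise of log2 2.59 ± 0.430 (edgeR adjusted p = 0.00745) held without replicate 3 and in each of the other 9 fits that left out 1 library of these groups (adjusted p up to 0.0195). Dwarf ovaries held 4.39, 7.60, 5.12, 4.57 and 9.48 CPM at 6 months and 15.3, 13.6, 13.2, 18.8 and 20.9 CPM at 22 months. The dwarf ages did not overlap either, as for 9.85% of all genes, and the rise was 1.30 ± 0.403 (edgeR adjusted p = 0.0436). That call remained in 1 of 10 fits without a library, the one without dwarf 6-month replicate 5, while the other 9 gave adjusted p-values of 0.0542 to 0.0978 with changes of 1.22 to 1.40. It was also lost (adjusted p = 0.0713) when dwarf 22-month replicates 1 and 4, the most alike pair of libraries, were summed.

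The share of a library's lysozyme counts assigned to Lyz1 compares both genes within 1 library. It was 5.53% ± 0.690 (SD, n = 5) in dwarf ovaries at 6 months, from 4.71 to 6.46%, and 10.7% ± 1.62 at 22 months, from 8.92 to 12.7%. The 2 ages did not overlap, and the difference of 5.13 percentage points had an exact two-sided permutation p = 0.00794, the smallest that 252 splits allow, or p = 0.0318 adjusted over the 4 comparisons. In normal ovaries the share was 7.26% ± 2.17 at 6 months and 9.17% ± 2.20 at 22 months, with overlapping ranges (3.99 to 9.92% and 6.84 to 11.4%; exact permutation p = 0.198, adjusted p = 0.265). Between the genotypes the difference was -1.74 points at 6 months (exact permutation p = 0.119) and 1.48 points at 22 months (exact permutation p = 0.333). Summing both lysozyme genes gave a change with age of log2 2.08 in normal ovaries (edgeR adjusted p = 0.00795) and 0.34 in dwarf ovaries (adjusted p = 0.526). The count files keep reads without a unique alignment in a row of their own, 8.70 to 16.2% of a file's counts, apart from the genes. How many of these reads match both lysozyme genes is not given in the sources used here, and their part in the share was not tested.

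**Figure D2:**
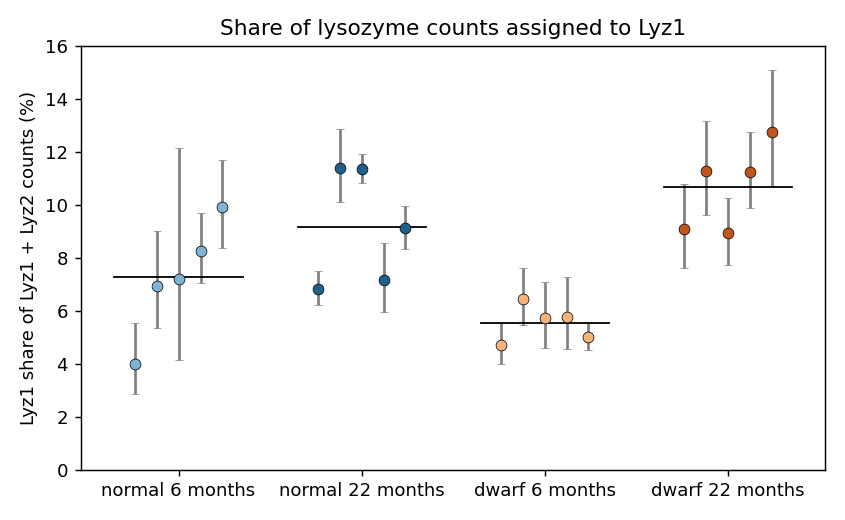
Share of the summed Lyz1 and Lyz2 counts assigned to Lyz1, in percent (vertical axis), for the 20 libraries in 4 groups (horizontal axis). Points are libraries with 95% Wilson intervals that cover counting error only, and lines are group means. All 5 dwarf libraries at 22 months, from 8.92 to 12.7%, lie above all 5 at 6 months, from 4.71 to 6.46%.

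Cd68 encodes macrosialin, a heavily glycosylated protein of the lysosome membrane that is used as a macrophage marker. Normal ovaries held 36.0, 18.7, 59.3, 22.7 and 32.4 CPM at 6 months and 66.3, 34.4, 126, 102 and 73.4 CPM at 22 months. Replicate 2 at 22 months lay within the younger range, and the rise was log2 1.22 ± 0.346 (edgeR adjusted p = 0.0398). It remained called in 4 of 10 fits without a library (without normal 6-month replicates 2 or 3, or normal 22-month replicates 1 or 2), and the other 6 gave adjusted p-values from 0.0513 to 0.114. Dwarf ovaries held 16.9, 27.3, 21.1, 21.7 and 31.7 CPM at 6 months and 34.5, 42.9, 26.2, 33.6 and 46.9 CPM at 22 months, which overlapped (0.55 ± 0.338, edgeR adjusted p = 0.293). The genotypes at 22 months differed by -1.22 ± 0.341, just outside the threshold (edgeR adjusted p = 0.0510).

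Gpnmb encodes a transmembrane glycoprotein of lysosomes and melanosomes that macrophages make under lysosomal load. In normal ovaries it stood at 26.8, 15.0, 49.8, 29.6 and 31.8 CPM at 6 months and at 287, 42.2, 172, 260 and 342 CPM at 22 months. Of the 5 older libraries, 4 were above all younger ones, and replicate 2, at 42.2 CPM, was not. The rise was log2 2.82 ± 0.576 (edgeR adjusted p = 0.0110), and replicate 3, the library richest in macrophage markers, was only the fourth highest. Dwarf ovaries held 40.7, 62.9, 38.2, 16.1 and 131 CPM at 6 months and 120, 42.8, 123, 116 and 168 CPM at 22 months. The dwarf ages overlapped, and the change was 0.88 ± 0.534 (edgeR adjusted p = 0.289). Melanocytes also make Gpnmb, and their 5 markers summed to 7.89 to 11.56 CPM in normal ovaries at 6 months and 8.48 to 10.9 CPM at 22 months, most of it Tyr (means of 8.00 and 6.88 CPM). Tyrp1 was at 0 in all libraries of 3 groups, and its mean was 0.0236 CPM in normal ovaries at 22 months.

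Itgax encodes CD11c, the integrin alpha chain found on dendritic cells and on some macrophages. Its values were 3.34, 2.84, 0, 3.97 and 2.59 CPM in normal ovaries at 6 months and 14.9, 8.42, 48.3, 26.4 and 10.8 CPM at 22 months. The ages did not overlap, and the library at 0, replicate 3, allows up to 2.20 CPM. The rise was log2 2.97 ± 0.525 (edgeR adjusted p = 0.00787), and without the older replicate 3, the highest of the group, it was called too (the 10 fits without a library gave 2.43 to 3.21). In dwarf ovaries the values were 5.08, 10.3, 2.36, 4.64 and 7.21 CPM at 6 months and 5.46, 10.2, 4.69, 7.26 and 10.2 CPM at 22 months, with full overlap (0.28 ± 0.483, edgeR adjusted p = 0.728). None of the 9 dendritic cell markers passed edgeR's test in any pairwise comparison (2 with age in normal ovaries at an unadjusted p under 0.05), and their summed level was 25.8 to 84.4 CPM in normal ovaries at 22 months beside 13.5 to 38.9 CPM at 6 months.

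Trem2 encodes a lipid-sensing receptor that signals through the adaptor Tyrobp and is a mark of lipid-laden macrophages. Normal ovaries held 15.9, 18.3, 22.0, 8.87 and 8.19 CPM at 6 months and 31.2, 12.8, 23.3, 33.7 and 30.9 CPM at 22 months. Of the 5 older libraries, 4 exceeded all younger ones, with a change of log2 0.82 ± 0.297 that was not called (edgeR adjusted p = 0.102, interval from 0.20 to 1.45). Its adaptor Tyrobp rose in the same comparison by 1.34 ± 0.348 (edgeR adjusted p = 0.0274), or 1.17 and uncalled without replicate 3 (adjusted p = 0.0794). In dwarf ovaries Trem2 overlapped between the ages, at 9.91, 14.1, 10.0, 9.28 and 13.7 CPM and then 13.2, 9.98, 12.6, 14.4 and 17.2 CPM (0.16 ± 0.292, edgeR adjusted p = 0.743). At 22 months the genotypes differed by -1.05 ± 0.294, again just outside the threshold (edgeR adjusted p = 0.0519). Trem2 in normal ovaries was called without the 3 libraries named above, at 1.36 (edgeR adjusted p = 0.00410).

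Spp1 encodes osteopontin, a secreted phosphoprotein that binds integrins and CD44 and is made by macrophages, osteoclasts and epithelia. It was not called with age in either genotype. Normal ovaries held 25.8, 3.50, 29.3, 53.4 and 7.02 CPM at 6 months and 30.0, 30.7, 28.4, 11.6 and 30.3 CPM at 22 months, a change of log2 0.13 ± 0.543 (edgeR adjusted p = 0.920, interval from -1.01 to 1.26). The young libraries spread widely, and replicate 2, the library rich in oviduct markers, was the lowest of them. Dwarf ovaries held 7.67, 3.92, 4.85, 2.39 and 7.79 CPM at 6 months and 5.33, 2.47, 7.36, 3.85 and 6.85 CPM at 22 months, a change of -0.15 ± 0.554 (edgeR adjusted p = 0.884). Instead, Spp1 was lower in dwarf than in normal ovaries at both ages, by -2.17 ± 0.567 at 6 months (edgeR adjusted p = 0.0349, ranges overlapping) and by -2.44 ± 0.576 at 22 months (edgeR adjusted p = 0.0225, ranges apart). The 6-month call remained in 2 of 10 fits without a library, those without normal replicates 2 or 5, and the other 8 gave -1.69 to -2.35 with adjusted p-values from 0.0505 to 0.0916. The 22-month call remained in 7 of 10 and was lost without dwarf replicates 1, 2 or 4 (adjusted p from 0.0526 to 0.0730).

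Between the genotypes at 22 months, 3 of the 9 genes were called lower in dwarf ovaries (Ctss, Lyz2 and Spp1), none was called higher, and all 9 fitted differences were negative, with a median of log2 -1.40 beside -0.044 over all genes. Of all genes 1.86% were called lower and 1.96% higher. The count of 3 was 0 with dwarf replicates 1 and 4 summed and ran from 0 to 6 in the fits without 1 library. For Lyz2 and Spp1 the genotypes did not overlap, 2 of 9 beside 2.07% of all genes. At 6 months only Spp1 was called lower, 1 of 9 beside 2.3% of all genes, and none higher, beside 2.27%. The median difference was 0.039 beside -0.039. For none of the 9 did the young genotypes lie apart with dwarf ovaries lower (0 of 9, beside 1.81% of all genes). Each group enters a pair of these comparisons, so they are not independent of each other.

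**Figure D3:**
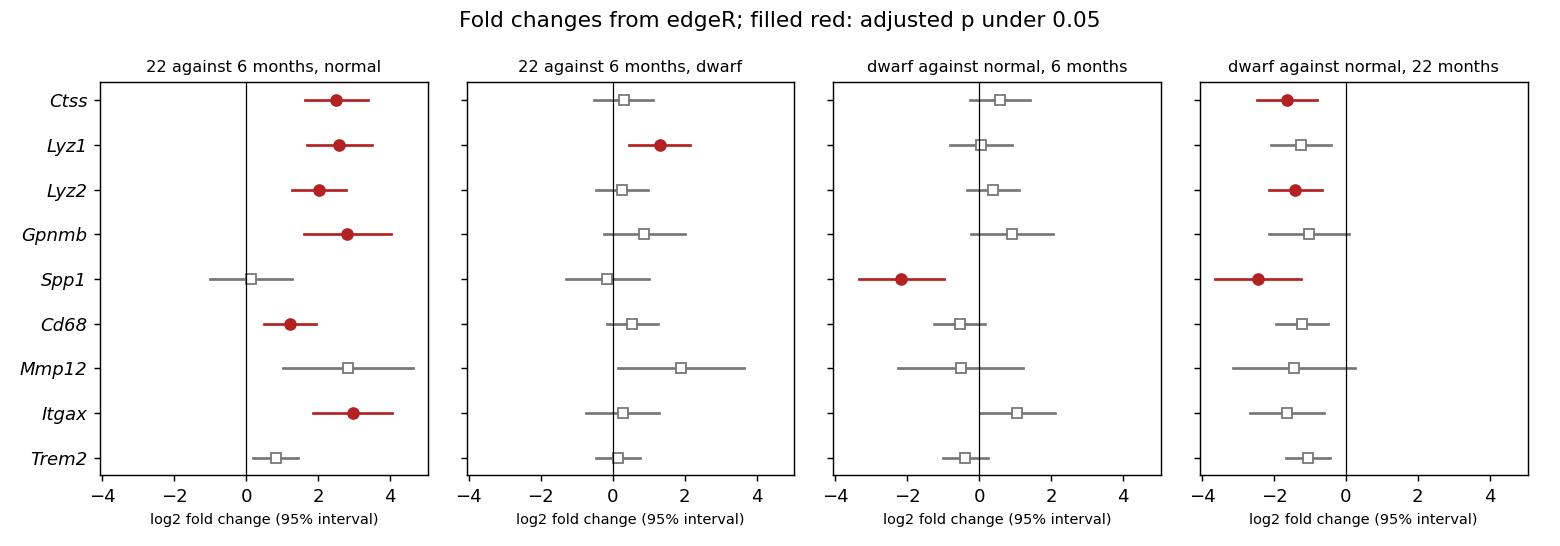
Fitted log2 fold change (horizontal axes) of the 9 genes in the 4 pairwise comparisons, with 95% intervals from edgeR's model. Filled circles are called genes (adjusted p under 0.05) and open squares are not. With age, 6 genes are called in normal ovaries and 1 in dwarf ovaries, all to the right of 0, where most uncalled genes also lie. Between the genotypes Spp1 is called to the left at both ages. At 22 months all 9 genes lie to the left, with Ctss and Lyz2 also called.

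The difference between the age responses was tested directly. It was below 0 for all 9 genes, meaning a smaller rise or a larger fall in dwarf ovaries, with a median of log2 -1.29 beside 0.004 over all genes. Itgax (-2.69 ± 0.701), Ctss (-2.21 ± 0.564) and Lyz2 (-1.78 ± 0.488) each had an edgeR adjusted p = 0.594, and Gpnmb (-1.94) had 0.623. None of the 9 genes was called (0 of 16099 over all genes, 0%). At an unadjusted p under 0.05 there were 5 of the 9 (Ctss, Itgax, Lyz2, Gpnmb and Lyz1) and 1127 of all genes, which is 7%. DESeq2 called 17 genes and limma voom 9 of all genes, and none of the 9 in either. So a rise that was called in normal and not in dwarf ovaries is not thereby shown to differ between them.

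Levels were compared between genes per kilobase of exon. In normal ovaries at 22 months Lyz2 stood first with a median of 263 CPM per kilobase, followed by Ctss (77.2), Cd68 (72.8), Gpnmb (68.5), Trem2 (27), Spp1 (18.1), Lyz1 (16.5), Mmp12 (4.38) and Itgax (3.69). At 6 months the order was Lyz2 (66.0), Cd68 (32.2), Ctss (17.4), Spp1 (15.6), Trem2 (13.9), Gpnmb (7.80), Lyz1 (4.97), Itgax (0.706) and Mmp12 (0.427). Ctss, Cd68 and Gpnmb at 22 months overlapped across their libraries, as did Trem2, Spp1 and Lyz1. Dwarf ovaries at 22 months placed Lyz2 first (136), then Ctss (34.9), Cd68 (34.2) and Gpnmb (31.5).

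Across the 20 libraries most of the 9 genes moved together. Ctss and Lyz2 correlated at Pearson r = 0.91 (log2 CPM), Lyz1 and Lyz2 at 0.91, a pair whose sequences are partly shared, and Gpnmb and Lyz2 at 0.84. With the group means removed, so that age and genotype no longer contribute, these were 0.73, 0.82 and 0.67. Itgax and Mmp12 correlated less with the others within groups. Itgax correlated with Trem2 at -0.29 and with Lyz2 at -0.01, while Itgax and Mmp12 gave 0.47. Spp1 correlated with the other 8 genes at -0.04 to 0.51 over the 20 libraries. The points share library composition and depth, and groups of libraries differ in both, so these values are descriptions.

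**Figure D4:**
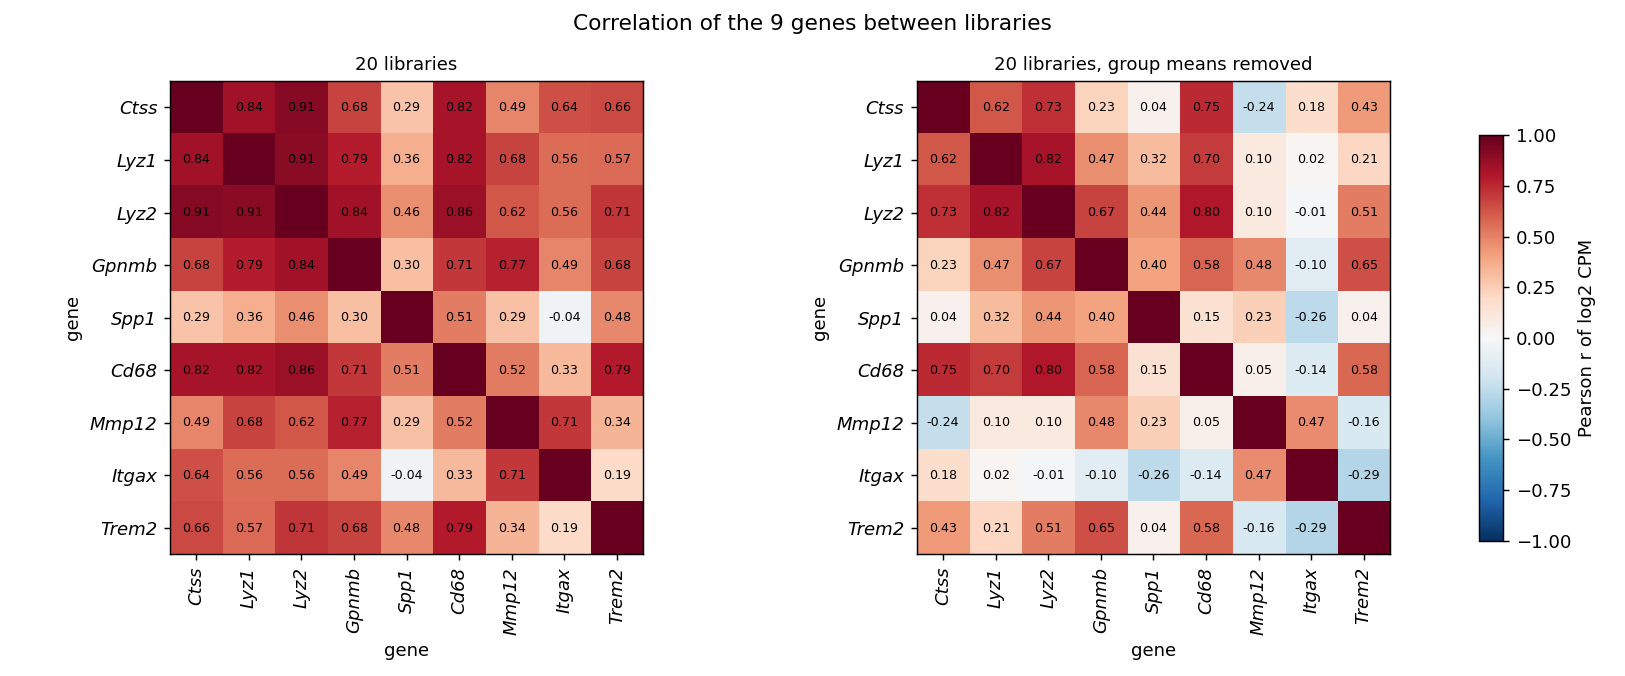
Pearson r of log2 CPM between the 9 genes (rows and columns) over 20 libraries, as measured (left) and after subtracting each group's mean (right). The colour scale runs from -1 to 1. Ctss, Lyz1, Lyz2 and Cd68 keep r of 0.62 to 0.82 with each other on the right, while Itgax and Mmp12 fall to between -0.29 and 0.48.

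The tested genes most like the 9, by the mean r over them in the 20 libraries, were Slc11a1 (0.71), Ly9 (0.71), Pla2g7 (0.68), Atp6v0d2 (0.68), Slc15a3 (0.67), Plekhf2 (0.67), B430306N03Rik (0.67) and Stac2 (0.67). With the group means removed, these mean r values were lower, from 0.27 for B430306N03Rik to 0.50 for Slc11a1 and Ly9. Slc11a1 encodes a metal transporter of the macrophage phagosome and Atp6v0d2 a proton pump subunit needed for macrophage fusion. Slc11a1 went from 9.72 ± 4.32 to 27.6 ± 12.3 CPM with age in normal ovaries (log2 1.51 ± 0.380, edgeR adjusted p = 0.0237) and from 9.02 ± 1.58 to 11.1 ± 4.47 CPM in dwarf ovaries (0.22 ± 0.365, edgeR adjusted p = 0.722). Atp6v0d2 had 1.92 ± 0.652 in normal and 1.83 ± 0.633 in dwarf ovaries, neither of them called (edgeR adjusted p = 0.0821 and 0.0669). It was also the gene most like Gpnmb (r = 0.80). Ctss was most like Itgb2 (r = 0.96), which encodes the beta chain that pairs with CD11c, and Cd68 was most like Slc11a1 (0.93). The other nearest genes were Stac2 for Lyz1 (0.90), Itgb2 for Lyz2 (0.87), Sh2d2a for Itgax (0.93), P2rx4 for Trem2 (0.89) and 4930502E18Rik for Mmp12 (0.85). Second came Sla for Ctss (0.93), Pla2g7 for Lyz1 (0.89), Slc15a3 for Lyz2 (0.86), Slc16a9 for Gpnmb (0.80), Ly9 for Cd68 (0.93), Pnliprp1 for Mmp12 (0.84), Gpr183 for Itgax (0.92) and Tpsb2 for Trem2 (0.82). After the group means were removed, r of these nearest genes ran from 0.595 (Slc16a9 for Gpnmb) to 0.945 (Itgb2 for Ctss).

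Spp1 had other neighbours. Its nearest genes were Hmox1 (r = 0.88), which encodes the heme-degrading enzyme heme oxygenase, and Akr1c18 (0.86), which encodes the enzyme that inactivates progesterone in regressing corpora lutea. Both were lower in dwarf ovaries at both ages. Hmox1 averaged 127 ± 77.3 and 191 ± 59.2 CPM in normal ovaries and 33.2 ± 7.68 and 48.6 ± 12.2 CPM in dwarf ovaries at 6 and 22 months, a difference of log2 -2.004 ± 0.420 and -2.06 ± 0.419 (edgeR adjusted p = 0.00885 and 0.0102). Akr1c18 averaged 161 ± 148 and 141 ± 250 CPM in normal ovaries and 0.990 ± 0.398 and 1.93 ± 0.985 CPM in dwarf ovaries (-7.29 ± 1.30 and -6.32 ± 1.27, edgeR adjusted p = 0.00345 and 0.00970). With the group means removed, Spp1 gave r = 0.74 with Hmox1 and 0.70 with Akr1c18. Both genes were picked for their r with Spp1 in these same libraries, so these values are descriptions and not independent support.

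General macrophage markers, 17 genes such as Csf1r and the C1q genes, rose in the same direction as the 9 genes. In normal ovaries 10 of 17 rose with age and none fell, with a median of log2 1.68, among them Mpeg1 (2.26 ± 0.457, edgeR adjusted p = 0.0106), Cybb (2.96 ± 0.644, adjusted p = 0.0132) and Laptm5 (1.79 ± 0.398, adjusted p = 0.0145). In dwarf ovaries 1 of 17 rose, Cd53 (1.99 ± 0.626, edgeR adjusted p = 0.0470), with a median of 0.38. Their summed level ran from 351 to 552 CPM in normal ovaries at 6 months and from 694 to 3033 CPM at 22 months, and none was at 0 in a whole group. Dwarf ovaries ran from 394 to 637 CPM at 6 months and from 469 to 979 CPM at 22 months. Between the genotypes at 22 months all 17 fitted differences were negative (median -1.16), but none was called by edgeR, with 13 at an unadjusted p under 0.05. Without normal replicate 3 that median was -0.52, with 0 called and 2 at an unadjusted p under 0.05, and 4 of 17 rose with age in normal ovaries (Mpeg1, Cybb, Laptm5 and Cd53). Some of the 17, such as Ptprc and Cd53, are found on leukocytes in general, so their sum does not stand for macrophages alone. How far the number of macrophages accounts for the 9 genes was not tested.

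Relative to the mean log2 CPM of these 17 markers in the same library, the 9 genes differed among themselves. Ctss stood 0.89 ± 0.395 above the marker mean in normal ovaries at 6 months and 1.62 ± 0.240 at 22 months (SD, n = 5), and in dwarf ovaries 1.16 ± 0.435 and 1.11 ± 0.254. Gpnmb stood 1.07 ± 0.715 and 2.18 ± 1.45 above it in normal ovaries and 1.45 ± 1.31 and 2.16 ± 1.15 in dwarf ovaries. Both genes had wide, overlapping ranges between the ages. Cd68 stood 1.20 ± 0.676 and 0.90 ± 0.578 above the marker mean in normal ovaries, and Trem2 0.01 ± 0.565 and -0.66 ± 1.05. Spp1 stood at 0.24 ± 1.62 and -0.67 ± 1.20 in normal and at -1.75 ± 1.00 and -2.24 ± 1.01 in dwarf ovaries. These are descriptions without a test.

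**Figure D5:**
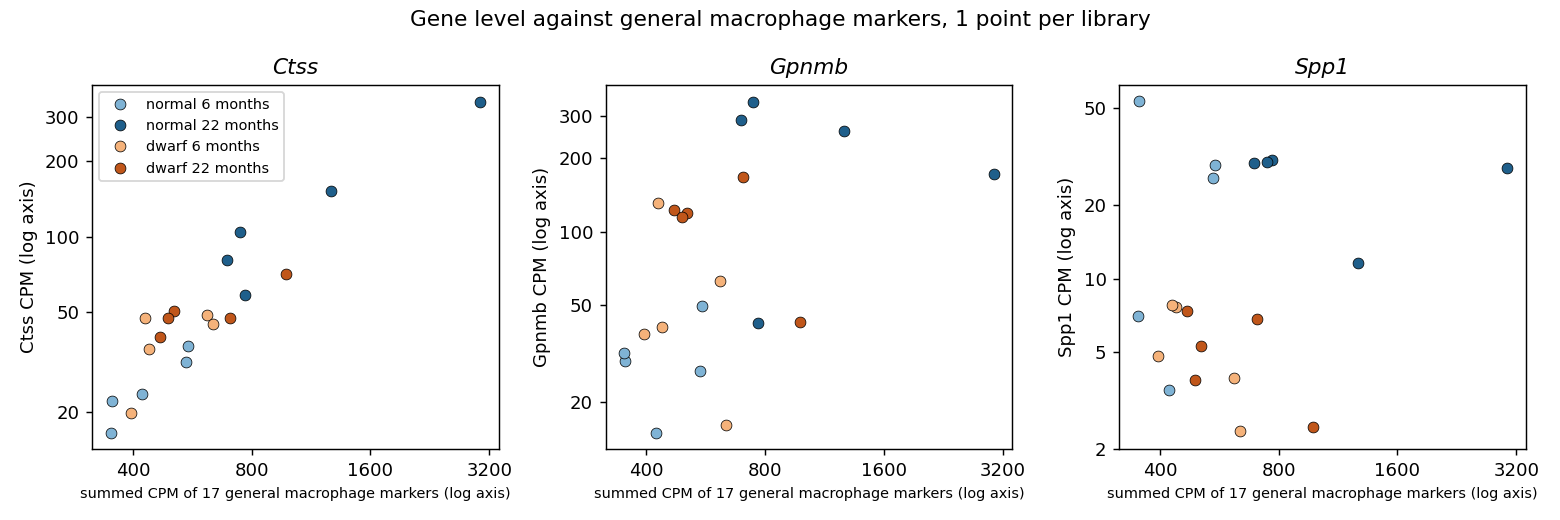
Level of Ctss, Gpnmb and Spp1 in CPM (vertical axes, log) against the summed CPM of 17 general macrophage markers (horizontal axes, log), with 1 point per library coloured by group. Ctss rises with the markers up to 345.5 CPM at 3033 CPM of markers, Gpnmb is highest, at 342 CPM, in a library with 746 CPM of markers, and Spp1 is low in dwarf libraries at any marker level.

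Related gene lists were described by their counts. Of 20 genes of lipid-handling macrophages, 8 rose with age in normal ovaries and none fell (median log2 0.81), among them the cholesterol exporter Abcg1 (1.19 ± 0.300, edgeR adjusted p = 0.0239) and the scavenger receptor Msr1 (2.74 ± 0.717, edgeR adjusted p = 0.0278). In dwarf ovaries 2 of 20 rose, Lpl, which encodes lipoprotein lipase (0.86 ± 0.208, edgeR adjusted p = 0.0135), and Lgals3, which encodes galectin 3 (1.22 ± 0.343, adjusted p = 0.0284). Dwarf ovaries at 22 months were lower for 3, namely Plin2, Tyrobp and Msr1, and higher for Apoc1 (1.52 ± 0.344, edgeR adjusted p = 0.0177), which was also higher at 6 months (2.64 ± 0.371, adjusted p = 0.000594). Without normal 22-month replicate 3, none of the 20 was called with age in normal ovaries by edgeR (9 at an unadjusted p under 0.05), Msr1 was 1.22 with age (adjusted p = 0.174), and Plin2 alone stayed lower in dwarf ovaries. Plin2 coats lipid droplets and was lower by -0.95 ± 0.149 (edgeR adjusted p = 0.00130).

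Genes of macrophage fusion and osteoclasts had a median change with age of log2 0.67 in normal and 0.59 in dwarf ovaries. Of 14 tested of 17 listed, 1 rose with age in normal ovaries (Sbno2, 0.68 ± 0.196, edgeR adjusted p = 0.0443) and 2 in dwarf ovaries (Cd44 and Cd47), and 2 were lower in dwarf ovaries at 22 months, Sbno2 and Acp5, which encodes the osteoclast acid phosphatase (-1.996 ± 0.418, edgeR adjusted p = 0.0113). Dcstamp, the gene of a fusion protein of osteoclasts and giant cells, did not pass the filter and averaged 0.114, 0.299, 0.117 and 0.417 CPM in the 4 groups, in the order used above for Cyp11a1. Without the 3 libraries named above, 8 of 14 rose and 1 fell with age in normal ovaries and 6 rose in dwarf ovaries. Without normal 6-month replicate 2 alone, the library rich in oviduct markers, 8 of 14 rose and none fell in normal ovaries. So this count rests on which libraries enter, that library among them. Without normal 22-month replicate 3 alone, none rose in normal ovaries in edgeR (5 at an unadjusted p under 0.05).

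Of 26 genes common to lysosomes in general, 2 rose with age in normal ovaries, the proteases Ctsd (1.22 ± 0.233, edgeR adjusted p = 0.00896) and Ctsc (1.40 ± 0.353, adjusted p = 0.0240), with a median of log2 0.21. In dwarf ovaries 3 rose (Lamp2, Atp6v1h and Ctsb) and 2 fell (Ctsl and Hexa), of which the protease Ctsl fell by 1.56 on the log2 scale (edgeR adjusted p = 0.000435). At 22 months 5 of 26 were lower in dwarf ovaries (Ctsd, Hexa, Psap, Ctsa and Ctsc), among them Ctsd (-1.41 ± 0.234, edgeR adjusted p = 0.00201) and Hexa (-0.83 ± 0.156, adjusted p = 0.00577). Without the 3 libraries, 10 rose and 2 fell with age in normal ovaries, and without normal 6-month replicate 2 alone 11 rose and 1 fell. Without normal 22-month replicate 3 alone, Ctsd rose and Ctsc did not pass (0.78, edgeR adjusted p = 0.0520), and 3 of 26 were lower in dwarf ovaries at 22 months.

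Of 12 transcription factors of myeloid cells, Sfpi1, the gene of PU.1, rose with age in normal ovaries (1.81 ± 0.491, edgeR adjusted p = 0.0331) and Pparg fell (-1.18 ± 0.344, adjusted p = 0.0446). In young dwarf ovaries Irf8 was higher (1.96 ± 0.324, edgeR adjusted p = 0.00185) and Cebpa lower (-0.97 ± 0.219, adjusted p = 0.0146) than in normal ones. None of the 12 passed edgeR's test with age in dwarf ovaries or between genotypes at 22 months (2 and 4 at an unadjusted p under 0.05). Neither Sfpi1 nor Pparg was called without normal 22-month replicate 3 (edgeR adjusted p = 0.118 and 0.0945). Of 18 partners and inhibitors of the 9 proteins, 5 rose with age in normal ovaries (Itgb2, Tyrobp, Syk, Sdc4 and Cd74) and 2 in dwarf ovaries (Timp3 and Cd44). Itgb2 rose by 2.51 ± 0.511 (edgeR adjusted p = 0.0107), from 10.6 ± 2.64 to 59.1 ± 60.7 CPM, and was lower in dwarf ovaries at 22 months (-1.79 ± 0.488, adjusted p = 0.0452). Without normal 22-month replicate 3 the rise was 1.63 (edgeR adjusted p = 0.0272), the genotype difference was -0.86 and uncalled (adjusted p = 0.188), and 2 of the 18 rose with age (Itgb2 and Sdc4). Lgmn, a lysosomal protease, and Timp1, an inhibitor of metalloproteinases, were lower in dwarf ovaries at both ages, Lgmn by -1.99 ± 0.426 at 6 months and -2.06 ± 0.427 at 22 months (edgeR adjusted p = 0.0105 and 0.0113).

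Markers of other cells moved with the 9 genes in normal ovaries. Of 10 T and NK cell markers tested, 5 rose with age (median log2 2.61; Zap70, Cd4, Cd2, Cd3e and Cd3g), and of 9 B cell markers 5 rose (median 4.16; Blk and Cd79a among them), beside none in dwarf ovaries for either list in edgeR (1 of each list at an unadjusted p under 0.05). Without normal 22-month replicate 3 the counts were 2 of 10 (Zap70 and Cd4, median 1.55) and 1 of 9 (Blk, median 1.88), and without the 3 libraries the medians were 1.96 and 2.35. The summed T and NK markers ran from 11.3 to 22.0 CPM and from 17.6 to 210 CPM at the 2 ages. The 6 oviduct markers ran from 22.4 to 6173 CPM in normal ovaries at 6 months and from 1895 to 3808 CPM at 22 months, and in dwarf ovaries from 26.5 to 1532 and from 2004 to 3533 CPM, with none called by edgeR (1 of 6 in normal and 0 of 6 in dwarf ovaries at an unadjusted p under 0.05). Without the 3 libraries all 6 oviduct markers rose with age in normal ovaries, as they did without normal 6-month replicate 2 alone. Adipocyte markers rose in dwarf ovaries (6 of 7, median 2.94, Fabp4, Adipoq and Retn first) and none was called in normal ones (0 of 7 in edgeR, 1 at an unadjusted p under 0.05). The neutrophil markers tested (5), melanocyte markers (2) and dendritic markers (9) had no call with age in either genotype in edgeR (2, 0 and 2 in normal and 0, 0 and 1 in dwarf ovaries at an unadjusted p under 0.05), and S100a8, Elane and Retnlg, 3 of the 10 neutrophil markers, were at 0 in normal ovaries at 6 months. The 10 summed to 36.8 to 3289 CPM in that group and 694 to 1996 CPM at 22 months. Most of it was Ltf (means of 728 and 1109 CPM), while Cxcr2 averaged 30.1 and 18.6 CPM. The 3289 CPM was in normal 6-month replicate 2, the library rich in oviduct markers, and Ltf reached 3263 CPM in that group. How much of this sum came from neutrophils was not tested. Of 9 ovary markers Amh, made by growing follicles, fell with age in normal (-4.65 ± 0.715, edgeR adjusted p = 0.00671) and in dwarf ovaries (-3.02 ± 0.652, adjusted p = 0.00780). The part of these cell types in the results for the 9 genes was not tested.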

How the data were processed

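Ovaries of 20 mice were flash frozen and their RNA extracted with Trizol for Illumina libraries, per the labels' protocols. The deposited files hold raw read counts per gene, 1 file per library, in the format of HTSeq-count, and gene positions come from the gene annotation deposited beside them. The submitters' processing notes name HTSeq, TopHat2 2.0.10, TopHat, edgeR, DESeq and Bowtie2, and the build mm10. The sources used here do not give the role of each, the strand setting or the annotation release. The 5 summary rows held 9.84 to 17.6% of a file's counts and were left out. No per-sample column was unused (0).

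Each library was taken as 1 mouse, as the series' design text has it. Counts were fitted in R 4.3.3 with edgeR 4.0.16 (filterByExpr with minimum count 10 and minimum total 15, TMM scaling, 4 group means over 20 libraries, robust quasi-likelihood, common dispersion 0.165). Each SE was derived from the fold change and its F statistic (size of the log2 change divided by root F). DESeq2 1.42.0 and limma 3.58.1 were alternatives, and the fit was tested on simulated data. Shares were tested by exact permutation in scipy 1.17.1, with Wilson intervals at 95%, and a count of 0 was read as up to 3 counts. The Wilson intervals and the limits for counts of 0 cover counting error only, while edgeR's intervals also include the fitted spread between libraries. Sequences were aligned with Biopython 1.88. Promoter windows are RefSeq's (GRCm38.p6), and transcripts for shared windows came from GENCODE M21.

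The 9 genes and the lists were chosen with earlier results of these data known. Beside the 9, the text names up to 3 called genes with the smallest p of each list, direction and comparison, the 8 genes with the highest mean r, the 2 nearest genes of each of the 9, and defining markers at 0. Further members of small counts were named after their values were seen, and Dcstamp and the ovary gene Cyp11a1 are given as context. Ly6g, Dnah5 and Dnah9 were listed as markers and were not analysed here, and not every gene that the rule allows is named or reported here.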

Additional observations from a re-analysis of the deposited data

Results flagged for a closer look

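Of 36 checks, 9 genes in 4 groups of 5 libraries, 4 had a library farther from its neighbour than Dixon's 95% limit (a gap of 0.71 of the group's range). Chance flags about 1 in 20 groups. In normal ovaries at 22 months replicate 3 was high for Lyz1, at 87.25 CPM with the next library at 30.5 CPM, and for Lyz2, at 680.3 CPM with the next at 304.6 CPM. This is also the library with the most B cell, T cell and general macrophage markers. In the same group Spp1 was low in replicate 4, at 11.57 CPM with the next library at 28.4 CPM. In dwarf ovaries at 22 months Mmp12 was high in replicate 5, at 12.41 CPM with the next library at 4.16 CPM.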

How the results depend on the processing

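In the fits without 1 library, Ctss, Lyz1, Lyz2, Gpnmb and Itgax stayed called with age in normal ovaries in 10 of 10, and the number called of the 9 genes ran from 5 to 8. Under the other alternatives it was 4 to 8 of 9, except that fitting only the groups compared called 0, as it did over all genes (0, beside 1086 in the fit of all groups). Over all genes the count there was 1766 with DESeq2, 3803 with limma voom, 4848 without the 3 libraries named in the report and 188 without title numbers 21 to 23. With age in dwarf ovaries the count of 1 became 5 with limma voom, 2 with only the groups compared, 2 without the 3 libraries (young normal replicates 2 and 3, old normal replicate 3), 0 with dwarf 22-month replicates 1 and 4 summed, 0 with Lyz1 and Lyz2 summed, where Lyz1 is not tested by itself, and 0 to 1 without 1 library. Over all genes 1802 became 2747 with DESeq2, 7492 with limma voom, 5169 with only the groups compared, 4697 without the 3 libraries and 1107 with the dwarf replicates summed. Between genotypes at 6 months the count of 1 became 0 with only the groups compared, 0 with the replicate block and 0 to 1 without 1 library, and over all genes 735 became 1414 with DESeq2, 1855 with limma voom, 244 with only the groups compared and 1991 without the 3 libraries. At 22 months the count of 3 became 7 with DESeq2, 8 with limma voom, 2 with the replicate block, 5 without the 3 libraries, 0 with the dwarf replicates summed, 0 without title numbers 21 to 23 (replicate 5 of the young normal, 3 of the old normal and 5 of the old dwarf group), and 0 to 6 without 1 library. Over all genes the counts there were 1201 with DESeq2, 2266 with limma voom, 1762 without the 3 libraries, 272 with the replicates summed and 323 without title numbers 21 to 23, beside 614. The difference of the age responses called 0 of the 9 in each fit run, with 5 at an unadjusted p under 0.05 in the edgeR fit of all libraries, and 202 of all genes without the 3 libraries.

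Values that changed sign were uncalled before and after. They were, for Spp1 with age in normal ovaries, -0.089 without the 3 libraries, -0.17 without title numbers 21 to 23, and -0.17 to 0.60 without 1 library. For Spp1 with age in dwarf ovaries they ran from -0.30 to 0.10 without 1 library, and for its difference of age responses from -0.74 to 0.033. Between genotypes at 6 months Lyz1 was -0.093 with limma voom, -0.04 with only the groups compared and -0.18 to 0.22 without 1 library, Trem2 was 0.009 with limma voom and 0.099 without the 3 libraries, and Mmp12 was 0.11 without title numbers 21 to 23 and -0.93 to 0.074 without 1 library. The rise of the Lyz1 share in dwarf ovaries was 4.61 to 5.56 points without 1 library, at an adjusted p of 0.0635, each exact permutation p before adjustment being the smallest that 4 against 5 libraries allow. The share between genotypes at 6 months ran from -1.07 to -2.55 points without 1 library, the last without normal replicate 1 (exact permutation, adjusted p = 0.0318). The cause of these changes was not tested.

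The replicate numbers were not treated as pairs in the main fit. Of 30 same-numbered pairs 10 correlated above 0.1 (lowest -0.22, median 0.0015, highest 0.72), which does not settle whether the mice were paired. With the replicate block, 7 of 9 genes were called with age in normal ovaries, Mmp12 being added (log2 3.08, edgeR adjusted p = 0.0328), Spp1 at 6 months was -2.10 (adjusted p = 0.0716) and Ctss between genotypes at 22 months -1.47 (adjusted p = 0.0734). Counts over all genes are not reported here for the replicate block or the fits without 1 library. The counts of the 9 genes in those fits thus have no share beside them. Dwarf 22-month replicates 1 and 4 differed beyond sampling noise (chi-square per degree of freedom 2.46, beside at least 12.2 for other pairs within a group) and were counted as 2. That difference does not show that they came from separate mice, and a shared source was not tested. Depth limits Mmp12 and Itgax most, in the library of 1365640 counts.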
